A study of Homo sapiens with 22 samples.

Results

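The 9 genes described here encode the proximal part of B-cell receptor signalling. They are the receptor subunits CD79A and CD79B, the kinases LYN, SYK and BTK, the adaptor BLNK, the effectors PLCG2 and PRKCB, and the inhibitory co-receptor CD22. They were taken by name for these roles, and each was read by 1 array element annotated to its symbol alone. All 9 were measured, among 15461 genes with such an element and 32878 elements on the array.

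The arrays were made from 11 established lymphoma cell lines, each grown as an untreated culture and as a culture treated with an inhibitor of DNA methyltransferases (5-aza-2′deoxycytidine, aza) and an inhibitor of histone deacetylases (trichostatin A, TSA). Treated cells (aza/TSA) were given 1 µM aza over 72 h, renewed every 24 h, and 0.5 µM TSA in the last 12 h, and untreated cells neither drug, so the effects of aza and TSA cannot be told apart. BL41, Raji and Ramos are Burkitt lymphoma (BL) lines, K422, ROS50 and SC-1 are follicular lymphoma (FL) lines, and 5 lines are diffuse large B-cell lymphoma (DLBCL), of which SUDHL4 and SUDHL6 are of the germinal center type (GCB) and HLY-1, OciLy10 and OciLy3 of the activated B-cell-like type (ABC). OciLy3 and OciLy10 were cultured in IMDM with human plasma, the remaining 9 lines in RPMI with fetal calf serum. Each line is represented by 1 culture per condition, so that the spread given below is the spread between lines and a lymphoma type is known from 2 or 3 lines only.

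The B-cell receptor is a membrane immunoglobulin held by the heterodimer of CD79A and CD79B, whose cytoplasmic tails carry the signalling motifs. After antigen binding, LYN phosphorylates these motifs, and SYK docks on them and phosphorylates the adaptor BLNK. BLNK brings BTK and PLCG2 together, so that PLCG2 can form diacylglycerol and bring about the release of calcium. Diacylglycerol and calcium activate PRKCB, which opens the route to NF-κB, while CD22 binds sialic acid and recruits phosphatases that damp the signal. B-cell lymphomas are known for their dependence on this receptor, and inhibitors of BTK are used against some of them.

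Because the DNA methyltransferases that aza inhibits methylate CpG dinucleotides, the promoter windows of the genes are shown first. The RefSeq windows (GRCh38.p14) run from 250 bases before to 50 bases after a transcription start, and 10 windows of 7 of the 9 genes were found. The 4 windows printed here are those of the gene with the largest decrease (BLNK), of a receptor subunit (CD79A), of the only gene that rose (PRKCB) and the window of SYK that is richest in CpG. They read 5′ to 3′ on the strand of the gene, with each CpG in capitals.
BLNK, chr10:96271520-96271819, minus strand: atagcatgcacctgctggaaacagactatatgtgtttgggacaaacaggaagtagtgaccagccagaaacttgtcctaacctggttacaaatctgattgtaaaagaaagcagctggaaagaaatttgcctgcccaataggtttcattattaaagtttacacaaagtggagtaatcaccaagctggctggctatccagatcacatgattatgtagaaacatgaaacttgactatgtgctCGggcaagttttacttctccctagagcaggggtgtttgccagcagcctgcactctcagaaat
CD79A, chr19:41877029-41877328, plus strand: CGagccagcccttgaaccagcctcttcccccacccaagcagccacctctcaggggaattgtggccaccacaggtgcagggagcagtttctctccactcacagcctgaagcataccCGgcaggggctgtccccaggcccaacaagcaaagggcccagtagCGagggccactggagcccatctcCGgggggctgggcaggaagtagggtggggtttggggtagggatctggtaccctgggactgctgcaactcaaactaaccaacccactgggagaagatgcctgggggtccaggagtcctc
SYK, chr9:90801569-90801868, plus strand: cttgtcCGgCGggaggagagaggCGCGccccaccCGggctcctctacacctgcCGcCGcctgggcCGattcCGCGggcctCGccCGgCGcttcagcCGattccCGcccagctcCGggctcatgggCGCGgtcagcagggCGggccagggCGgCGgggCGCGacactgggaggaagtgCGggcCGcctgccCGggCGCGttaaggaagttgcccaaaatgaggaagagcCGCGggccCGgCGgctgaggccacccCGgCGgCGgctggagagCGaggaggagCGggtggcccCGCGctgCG
PRKCB, chr16:23835733-23836032, plus strand: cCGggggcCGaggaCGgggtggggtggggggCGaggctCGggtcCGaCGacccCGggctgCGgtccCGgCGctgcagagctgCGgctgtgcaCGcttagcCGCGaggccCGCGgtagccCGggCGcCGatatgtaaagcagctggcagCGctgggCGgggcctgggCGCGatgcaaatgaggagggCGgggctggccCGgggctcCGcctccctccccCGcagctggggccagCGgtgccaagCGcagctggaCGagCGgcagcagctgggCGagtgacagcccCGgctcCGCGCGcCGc
The window of BLNK holds 1 CpG and that of CD79A 4, against a median of 14 over all 35116 RefSeq windows. The printed window of SYK holds 40 and that of PRKCB 38, more than 92.4% and 90.1% of all windows. Low and high CpG counts thus both occurred among genes that fell, and the gene that rose was rich in CpG. The arrays do not measure methylation of these windows, and a relation of CpG count to response was not tested. PLCG2 has 8 CpG and CD22 has 9, the windows of BTK hold 27 and 2, and those of SYK that are not shown hold 19 and 2. CD79B and LYN have no sequence shown.

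An octamer motif (ATGCAAAT, either strand), which OCT2 and its coactivator bind in B-cell genes, was matched in PRKCB alone among the 7 genes and in 1.77% of all windows. An ETS-type motif (AGGAAGT, either strand), the core read by PU.1 and related factors, was matched in BLNK, CD79A, SYK and BTK, and in 8.24% of all windows. A gene counts as matched if any of its windows is, and the 7 genes have 10 windows, so these counts and the shares of windows differ in unit. The 2 motifs do not overlap in letters, and a match describes these letters only.

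The signals before normalization were low in SUDHL4, HLY-1 and OciLy10, with a 75th percentile of 3907 to 4547 on their untreated arrays against 5155 to 14311 on those of the other 8 lines. On treated arrays it was 2901 to 3868 against 4310 to 15058, and the arrays of these 3 lines are called low-signal arrays below. After quantile normalization every array had a median log2 signal of 10.18. The B-cell markers CD37, CD74 and MS4A1 were among 9 measured markers of this lineage, 7 of which lay above the array median in at least 6 untreated cultures. PAX5 and FCER2 did not, as they lay above it in 2 and 3 untreated cultures, with mean untreated levels of 9.05 and 9.58. Of 7 T-cell markers 0 lay above the median in at least 6 untreated cultures, and of 7 myeloid markers 3. The mean level of the B-cell markers ran from 11.55 to 15.27 log2 units over untreated and from 11.11 to 14.07 over treated arrays.

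After aza/TSA, 6 of the 9 genes fell and 1 rose, and 2 were not called (limma on log2 signals with the cell line as a block, Benjamini-Hochberg adjusted p under 0.05 over all elements). BLNK, SYK, CD79B, BTK, CD22 and CD79A fell, PRKCB rose, and LYN and PLCG2 did not pass. Of all elements, 12.4% fell and 11.2% rose in the same fit, and of the 4085 elements that were at least as bright untreated as the dimmest of the 9 genes other than PRKCB, 28.6% fell and 14.2% rose. The median log2 difference of the 9 genes was -1.77, against -0.03 over all elements and -0.05 over the bright ones. Of the 9 genes 0 had all treated below all untreated signals, as 0.642% of all elements had. In such cultures fewer cells expressing a gene and less RNA per cell cannot be told apart, and with 1 culture per line and condition the p-values measure the spread between lines. Median scaling of the arrays instead moved the median of all elements to -0.15 and the split of calls from 4064 lower and 3674 higher to 5637 lower and 2603 higher, and under it the same 6 genes and PLCG2 were lower and PRKCB higher.

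**Figure D1:**
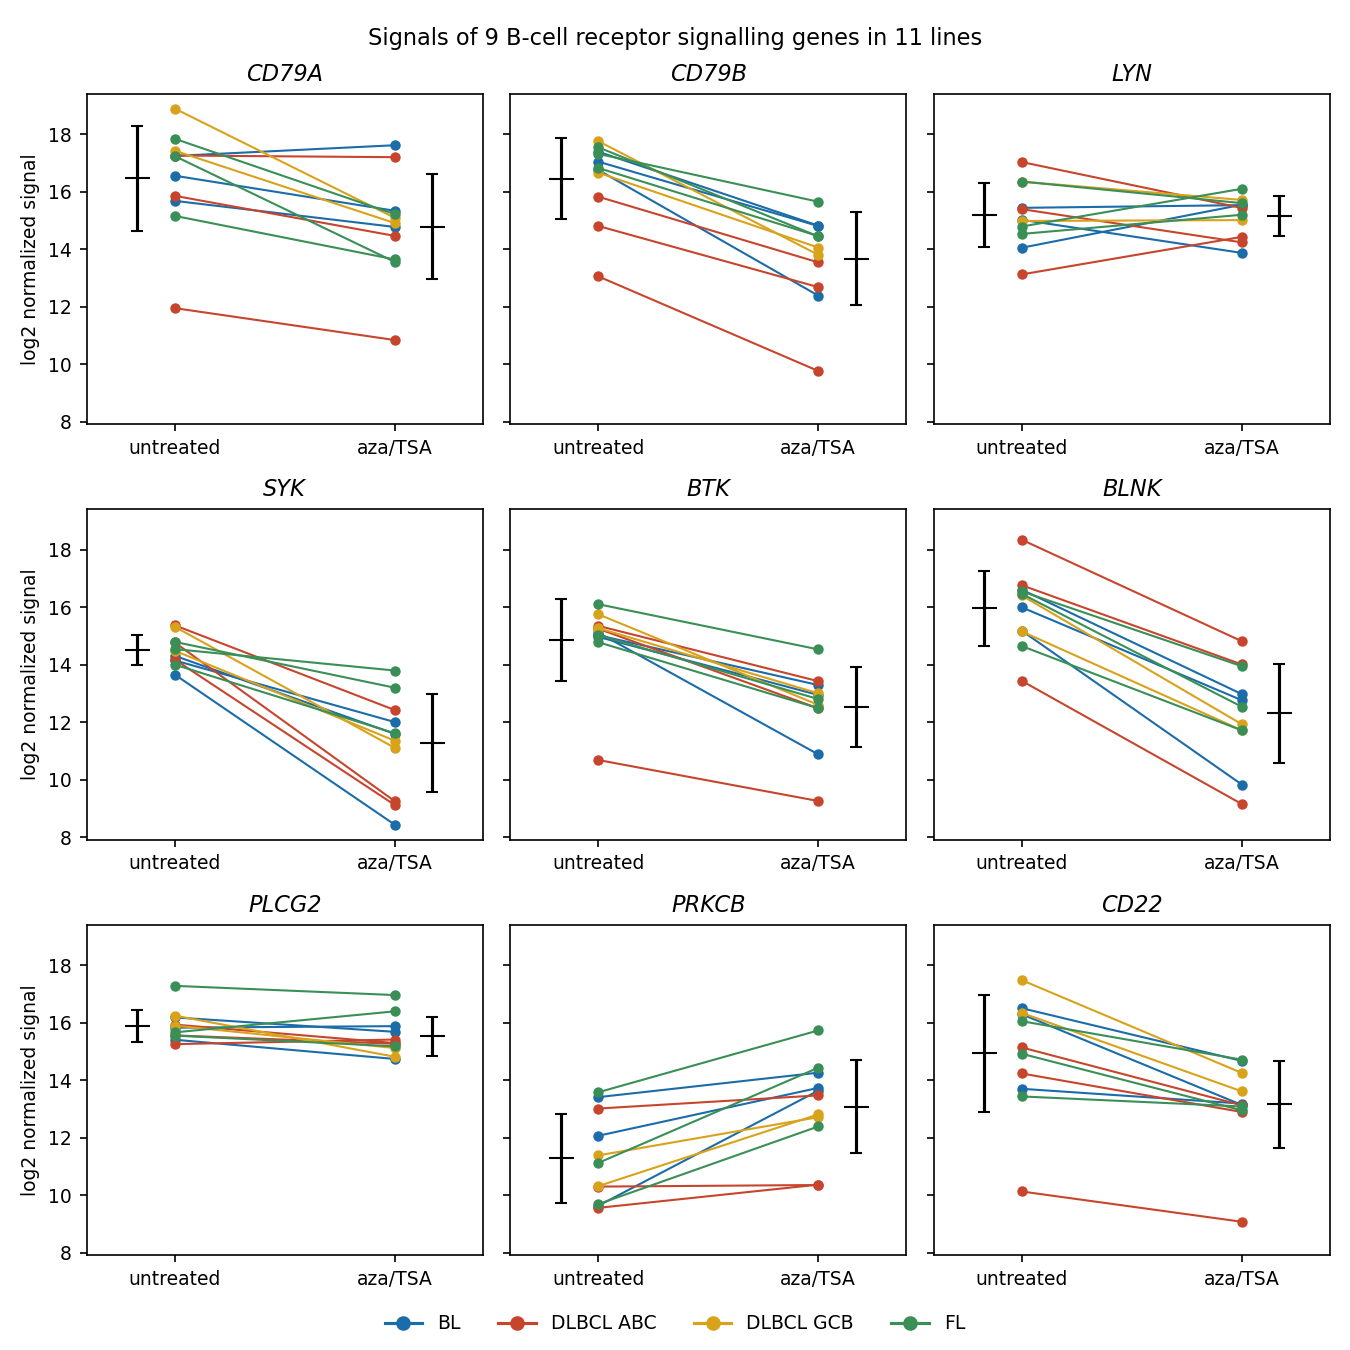
Log2 normalized signal (vertical axis) of each of the 9 genes in the untreated and the aza/TSA culture of 11 lines. Each line joins the 2 cultures of 1 cell line, coloured by lymphoma type, and black bars give mean ± SD over the lines. BLNK, SYK, CD79B and BTK run downward in 11 of 11 lines, PRKCB runs upward in 11 of 11, and LYN goes both ways.

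Of the receptor subunits, CD79B responded in every line and CD79A in most. The untreated signal of CD79B lay between 13.06 (HLY-1) and 17.76 (SUDHL6), with a median of 16.83, and its treated signal between 9.77 (HLY-1) and 15.65 (ROS50), with a median of 14.06. The groups overlapped, with the ABC lines low in both conditions, but the difference was negative in every line, with -1.66 in ROS50 as the smallest. CD79B fell from 16.45 ± 1.41 to 13.68 ± 1.61 (mean ± SD, n = 11 lines) (log2 difference -2.78, SE 0.24, limma adjusted p = 3.06e-06) or 6.86-fold. In 11 of 11 lines the decrease was at least 2-fold, as for 0.532% of all elements, while 6.15% were lower in 11 of 11.

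CD79A, the partner in the heterodimer, ranged from 11.95 (HLY-1) to 18.89 (SUDHL6) untreated, with a median of 17.24, and from 10.84 (HLY-1) to 17.61 (Ramos) treated, with a median of 14.91. Its response was uneven, from -3.80 in SUDHL6 and -3.68 in ROS50 to -0.06 in OciLy10 and 0.37 in Ramos. It was lower in 10 of 11 lines and at least 2-fold lower in 8, and the groups overlapped widely. CD79A fell from 16.46 ± 1.83 to 14.79 ± 1.81 (log2 difference -1.68, SE 0.36, limma adjusted p = 0.00371), which a fit without the line block did not call (limma adjusted p = 0.139). Ramos and OciLy10, which kept the level of CD79A, had differences of -2.57 and -2.28 in CD79B.

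Of the 3 kinases, SYK and BTK fell and LYN did not pass the test. SYK, the kinase that docks on the phosphorylated receptor, had untreated signals within a narrow range, from 13.66 (BL41) to 15.37 (OciLy3), with a median of 14.49. The treated signals spread from 8.44 (BL41) to 13.80 (ROS50), with a median of 11.60. In 10 of 11 lines the treated signal was below the lowest untreated one, and only ROS50 stayed inside the untreated range. SYK fell from 14.51 ± 0.53 to 11.27 ± 1.70 (log2 difference -3.24, SE 0.42, limma adjusted p = 7.10e-05) or 9.46-fold, and ranked 11 of 32878 elements from the largest decrease. The smallest differences were those of ROS50 (-0.75) and K422 (-1.59) and the largest those of OciLy10 (-5.52), BL41 (-5.22) and HLY-1 (-5.06), and without HLY-1, OciLy10 and SUDHL4 the log2 fold change was -2.74.

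BTK, the Tec family kinase that phosphorylates PLCG2, lay between 10.69 (HLY-1) and 16.10 (ROS50) untreated, with a median of 15.12, and between 9.26 (HLY-1) and 14.53 (ROS50) treated, with a median of 12.81. HLY-1 was low in both cultures, and the other 10 untreated lines lay between 14.78 and 16.10. BTK fell from 14.85 ± 1.43 to 12.52 ± 1.39 (log2 difference -2.33, SE 0.23, limma adjusted p = 9.93e-06). All 11 lines were at least 2-fold lower, with differences from -4.23 in BL41 to -1.43 in HLY-1.

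LYN, the Src family kinase that starts the signal and also phosphorylates CD22, ranged from 13.13 (HLY-1) to 17.03 (OciLy3) untreated, with a median of 15.02, and from 13.87 (BL41) to 16.10 (ROS50) treated, with a median of 15.43. It was at least 2-fold higher in Raji, ROS50 and HLY-1 and at least 2-fold lower in OciLy3, OciLy10 and BL41. The mean log2 difference of LYN was -0.04 (SE 0.31, limma adjusted p = 0.954), with a 95% confidence interval from -0.69 to 0.62. The mean conceals these opposite differences, and its sign depended on the lines included (0.26 in the 9 lines in RPMI).

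BLNK, the adaptor, had the largest decrease of the 9 genes. Its untreated signal ranged from 13.44 (HLY-1) over a median of 16.41 to 18.35 (OciLy10), and its treated signal from 9.16 (HLY-1) over a median of 12.54 to 14.82 (OciLy10). HLY-1 was lowest and OciLy10 highest in both conditions, and 8 of 11 treated cultures lay below the lowest untreated one. BLNK fell from 15.96 ± 1.30 to 12.31 ± 1.72 (log2 difference -3.65, SE 0.24, limma adjusted p = 7.24e-07) or 12.5-fold, and ranked 6 of 32878 elements from the largest decrease. The differences of the single lines lay between -5.35 (BL41) and -2.60 (SC-1), so that each line lost at least 2-fold.

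The 2 effectors did not follow. PLCG2, the phospholipase downstream of BLNK, was held in a narrow range, from 15.25 (OciLy10) to 17.28 (K422) untreated, with a median of 15.83, and from 14.74 (Raji) to 16.96 (K422) treated, with a median of 15.29. K422 was highest in both conditions, and 4 of 11 treated cultures lay below the lowest untreated one. The mean log2 difference of PLCG2 was -0.37 (SE 0.18, limma adjusted p = 0.170), with a 95% confidence interval from -0.76 to 0.02. It was lower in 8 of 11 lines, with -1.43 in SUDHL6, and passed the test after median scaling (-0.80, adjusted p = 0.00418 from limma) and without normalization (-0.71, adjusted p = 0.0309 from limma). Under median scaling 5 of 9 housekeeping genes were lower as well, with a median of -0.53.

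PRKCB, the protein kinase C isoform of the NF-κB route, was the only gene of the 9 that rose. Untreated signals ranged from 9.56 (OciLy3) to 13.58 (ROS50), with a median of 11.12, and treated ones from 10.36 (HLY-1) to 15.73 (ROS50), with a median of 13.47. In OciLy3, Ramos and SC-1 the untreated signal was below the array median, whereas 11 of 11 treated signals lay above it. PRKCB rose from 11.28 ± 1.53 to 13.08 ± 1.63 (log2 difference 1.80, SE 0.34, limma adjusted p = 0.00133) or 3.49-fold. It was higher in 11 of 11 lines, as were 5.46% of all elements, and at least 2-fold higher in 7. Ramos (4.0) and K422 (3.31) had the largest differences and HLY-1 (0.06) and OciLy10 (0.46) the smallest, and a fit without the line block did not call it (limma adjusted p = 0.0578).

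CD22, the inhibitory co-receptor, ranged from 10.13 (HLY-1) to 17.48 (SUDHL6) untreated, with a median of 15.14, and from 9.08 (HLY-1) to 14.71 (ROS50) treated, with a median of 13.14. It was lower in 11 of 11 lines and at least 2-fold lower in 9, the exceptions being Raji (-0.51) and K422 (-0.35). CD22 fell from 14.93 ± 2.03 to 13.16 ± 1.51 (log2 difference -1.77, SE 0.27, limma adjusted p = 2.91e-04), which a fit without the line block did not call either (limma adjusted p = 0.106). HLY-1 was the lowest line in both conditions, and the groups overlapped.

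By the rule of at least 2-fold in at least 6 of 11 lines, which the study used for increases and which was mirrored here for decreases, the same 6 genes were lower and PRKCB was higher. Of all elements 5.80% were lower and 6.52% higher by this rule. With a 3-fold threshold 5 of the 9 genes were lower, a count for which no share of all elements is given.

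**Figure D2:**
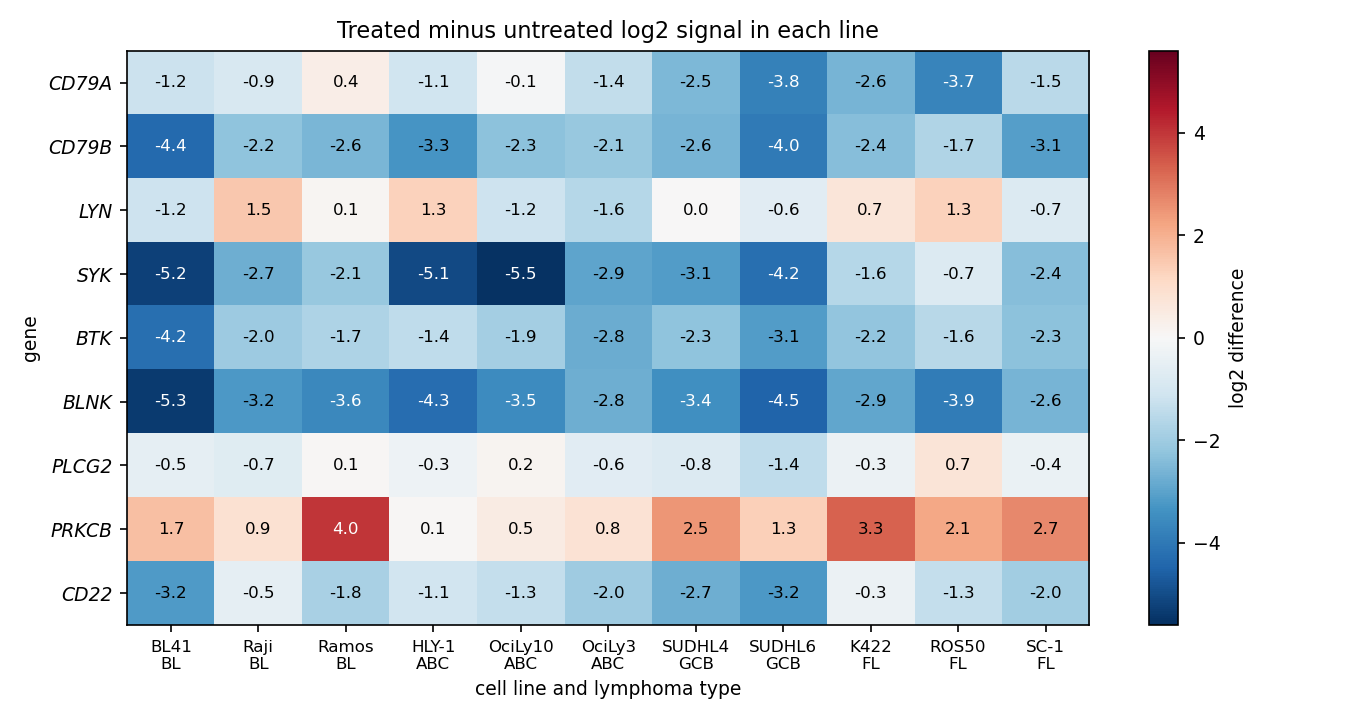
Treated minus untreated log2 signal of each gene (rows) in each cell line (columns, with the lymphoma type), with blue for lower and red for higher after aza/TSA. The rows of CD79B, SYK, BTK, BLNK and CD22 are blue throughout, that of PRKCB is red throughout, and that of LYN is mixed.

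The lines differed in how far the 6 genes fell. The median difference of the 6 genes was largest in BL41 (-4.30) and SUDHL6 (-3.87), and smallest in ROS50 (-1.62) and Ramos (-1.99). BL41 had the largest decrease of BLNK, CD79B and BTK, and SUDHL6 that of CD79A and CD22. Over all elements the share at least 2-fold lower was 18.0% in BL41, the highest of the 11 lines, 15.3% in SUDHL6, 16.2% in ROS50 and 12.0% in K422, the lowest. ROS50 thus combined a middling share of lower elements with the smallest decrease of SYK (-0.75) and CD79B (-1.66), but its decrease of CD79A (-3.68) was the second largest and that of BLNK (-3.92) above the mean.

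The lymphoma types were first compared on untreated levels, where 0 of the 9 genes differed over the 4 types by limma's F-test (lowest adjusted p = 0.355, for CD79B) and 1 had an unadjusted p under 0.05. Of all elements 0.0973% were called and 6.76% had an unadjusted p under 0.05. The ABC type stands out among B-cell lymphomas for chronic receptor signalling, so its 3 lines were also set against the 8 other lines. CD79B was the only gene of the 9 called, and it was lower in the ABC lines. Its untreated signals were 13.06 in HLY-1, 14.81 in OciLy3 and 15.83 in OciLy10, against 16.66 to 17.76 (median 17.18) in the 8 other lines, so the groups did not overlap. The difference was -2.60 log2 units (SE 0.49, limma adjusted p = 0.0354), while 0.158% of all elements were called lower, 0.313% higher, and 1.25% had ABC lines all below the others. At an unadjusted p under 0.05 there were 2 of the 9 genes, CD79B and CD22, and 9.61% of all elements.

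This difference in CD79B kept its direction in each subset of lines, but not the call. It was -2.22 within the low-signal arrays (HLY-1 and OciLy10 minus SUDHL4), -2.43 within the others (OciLy3 minus 7 lines) and -4.11 within RPMI (HLY-1 minus 8 lines). With the low-signal arrays as a block it was -2.34 (adjusted p = 0.205 from limma), and without HLY-1 it was -1.85 (adjusted p = 0.0775 from limma). Leaving out any one of HLY-1, OciLy3, BL41, Raji, Ramos, SUDHL6, ROS50 and SC-1 ended the call (differences of -2.72 to -1.85). Medium, the low-signal arrays and the ABC type are partly shared between the lines, and their separate part in the result was not tested.

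CD22 was also lower in the untreated ABC lines, at 10.13 in HLY-1, 14.24 in OciLy10 and 15.14 in OciLy3 against 13.44 to 17.48 (median 16.17), but did not pass the adjusted test (difference -2.42, SE 1.02, adjusted p = 0.469 from limma). Without HLY-1 this difference was -0.90. HLY-1 had the lowest untreated level of 6 of the 9 genes (BLNK, CD79A, CD79B, BTK, LYN and CD22). The BTK difference of -1.49 was -0.003 without the 3 low-signal lines and 0.045 without HLY-1, so it rested on that line.

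On treated levels 0 of the 9 genes passed, by the F-test (lowest adjusted p = 0.833) or for ABC against the others (lowest adjusted p = 0.387, both from limma), where 0.00304%, 0.0395% (lower) and 0.0365% (higher) of all elements were called. At an unadjusted p under 0.05 there were 2 genes by the F-test, with 5.92% of all elements, and 3 for ABC, with 8.53%. The 3 were CD79B (ABC minus others -2.31), PRKCB (-2.31) and CD22 (-2.0). Without HLY-1 these differences were -1.19, -1.79 and -0.69.

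On the response itself 0 of the 9 genes differed between the types by limma's F-test (lowest adjusted p = 0.724; 0% of all elements called), and 2 had an unadjusted p under 0.05, CD79A and SYK, with 6.51% of all elements. CD79A had differences of -3.80 and -2.52 in the GCB lines and of -3.68, -2.62 and -1.51 in the FL lines, while those in BL were -1.22, -0.91 and 0.37 and in ABC -1.39, -1.11 and -0.06. SYK had differences of -2.38, -1.59 and -0.75 in FL and -5.52, -5.06 and -2.95 in ABC. The differences of -5.52 and -5.06 were those of the low-signal lines OciLy10 and HLY-1, whose treated signals (9.26 and 9.13) lay below the array median. For SYK the response in ABC minus that in the other lines was -1.74. Without HLY-1, OciLy10 and SUDHL4, which leaves OciLy3 as the only ABC line, it was -0.23. In CD79A every ABC and BL line lay above every GCB and FL line, though narrowly (-1.39 against -1.51), a grouping seen in these values and not tested. In SYK the FL lines had the smaller decreases and overlapped with BL, and neither gene was called.

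For ABC against the 8 other lines, 0 of the 9 responses passed the adjusted test (0.00608% of all elements in each direction) and 1 had an unadjusted p under 0.05, with 7.53% of all elements. This was PRKCB, with differences of 0.06 (HLY-1), 0.46 (OciLy10) and 0.81 (OciLy3) in ABC against 0.85 to 4.0 (median 2.32) elsewhere. The groups did not overlap, as for 1.18% of all elements, but the highest ABC line and the lowest other line, Raji, were close. The difference in response was -1.87 log2 units (SE 0.59, limma adjusted p = 0.444), and it was -2.24 within the low-signal arrays and -1.48 within the others.

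**Figure D3:**
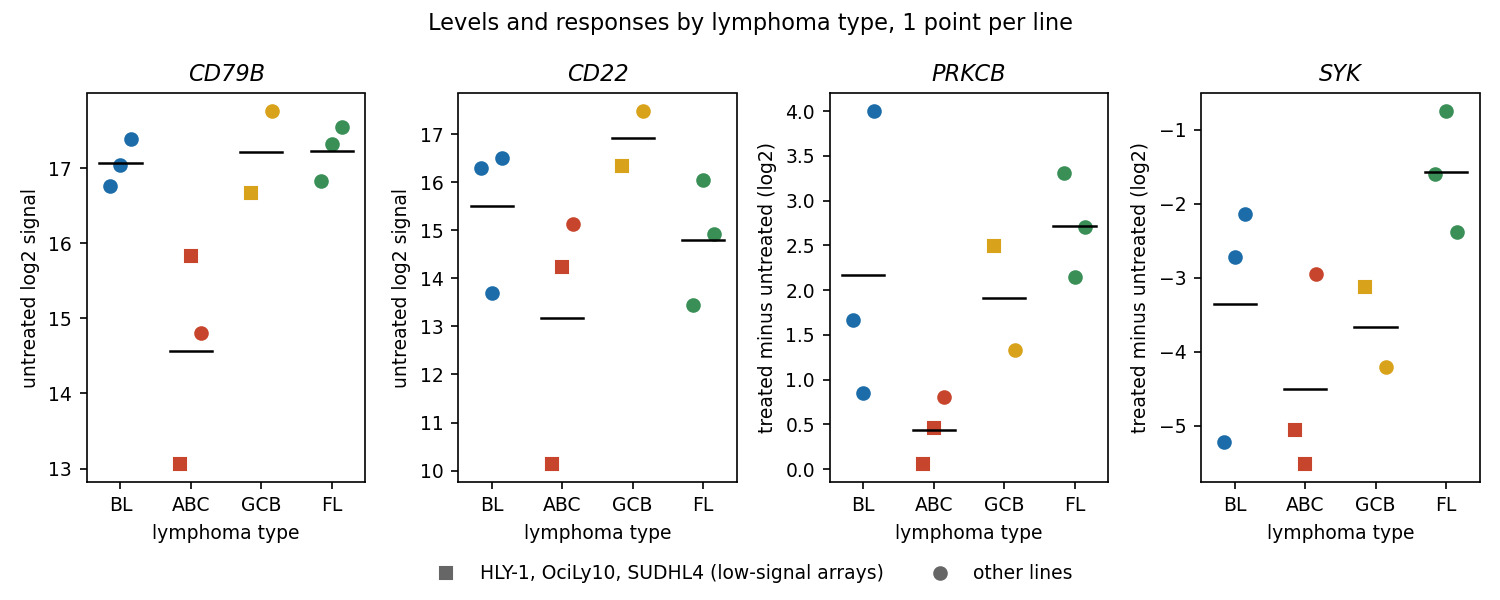
Untreated log2 signal of CD79B and CD22 and the treated minus untreated log2 difference of PRKCB and SYK (vertical axes, each with its own range) by lymphoma type, with 1 point per line, bars for type means and squares for lines with low-signal arrays. The ABC lines lie at 13.06 to 15.83 in CD79B, below the 8 others, and at 0.06 to 0.81 in the PRKCB response.

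The other genes of the pathway were read from 8 lists, each gene counted once. Of 133 genes 109 were measured, of which 34 (31.2%) fell, 11 (10.1%) rose and 64 did not pass, with a median log2 difference of -0.35. Of all genes with a named element, 15.2% fell and 15.1% rose, with a median of -0.01. The counts of the single lists below are to be read against these shares, and no list was tested as a set. Among the 4085 bright elements described above, 28.6% fell and 14.2% rose. The 109 genes were not matched to either set by signal level. The largest decreases were spread over several branches and were not found in all members of any branch.

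Of the immunoglobulin chains 3 of 9 were measured, of which 2 fell, JCHAIN (-1.63), the joining chain, and IGLL1 (-2.21), a surrogate light chain, while IGKC was at -0.72. Among co-receptor genes and adaptors 5 of 20 fell and 0 rose (7 and 2 by limma at an unadjusted p under 0.05), led by LAT2 (-3.30), an adaptor of the LAT family, and PTPRC (-3.07), the phosphatase CD45 that keeps Src kinases active. For the treatment no share of all elements is given at an unadjusted p, so such counts have no reference here or in the lists below. Of the other Src and Tec kinases 3 of 8 fell and 2 rose. BLK, a B-lineage Src kinase (-2.83), and LCK (-1.62) fell, whereas YES1 (1.11) and FYN (0.72) rose. The Src family was thus divided, though FYN was called neither after median scaling (0.54) nor without normalization (0.63). YES1 lay above the array median in 3 untreated and 6 treated cultures.

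Inhibitors of the signal had the longest list, and 8 of 24 fell and 0 rose. SLA (-2.54), an adaptor that lowers receptor levels, and CSK (-2.26), which phosphorylates the inhibitory site of Src kinases, had the largest decreases. At an unadjusted p under 0.05 the counts by limma were 11 lower and 0 higher, again without a share of all elements to set them against. Calcium and NFAT genes moved both ways, with 4 of 13 lower (NFATC1 -1.05, PPP3CC -0.98) and 2 higher (STIM1 0.89, PPP3CA 0.88). In the branch of protein kinase C and NF-κB, 3 of 20 fell and 2 rose, with NFKB1 (-2.13) and the paracaspase MALT1 (-1.33) lower and MAP3K7 (0.91) and CHUK (0.54) higher. For comparison, 15.2% of all genes with a named element fell and 15.1% rose, and neither branch was tested as a set.

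Of the Ras and MAP kinase genes 6 of 10 fell and 2 rose. RASGRP3 (-3.23) and RASGRP1 (-2.19), diacylglycerol-responsive activators of Ras, fell, and the MAP kinase kinases MAP2K1 (0.79) and MAP2K2 (0.40) rose. In the phosphoinositide kinase branch 3 of 11 fell and 3 rose, with PIK3CG (-1.43) and PIK3CB (-0.98) lower and PIK3R3 (1.82) and PDPK1 (1.27) higher. The increases depended on the scaling, as did those of all elements. After median scaling 5 of the 109 genes were higher and 41 lower, and without normalization 3 and 35. Of all 32878 elements 2603 were higher and 5637 lower after median scaling. Without normalization 2795 were higher and 4168 lower, against 3674 and 4064 with the deposited log2 table. FYN, MAP2K1, MAP2K2, CHUK and PPP3CA were called neither after median scaling nor without normalization. STIM1 and MAP3K7 were not called without normalization (0.60 each).

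**Figure D4:**
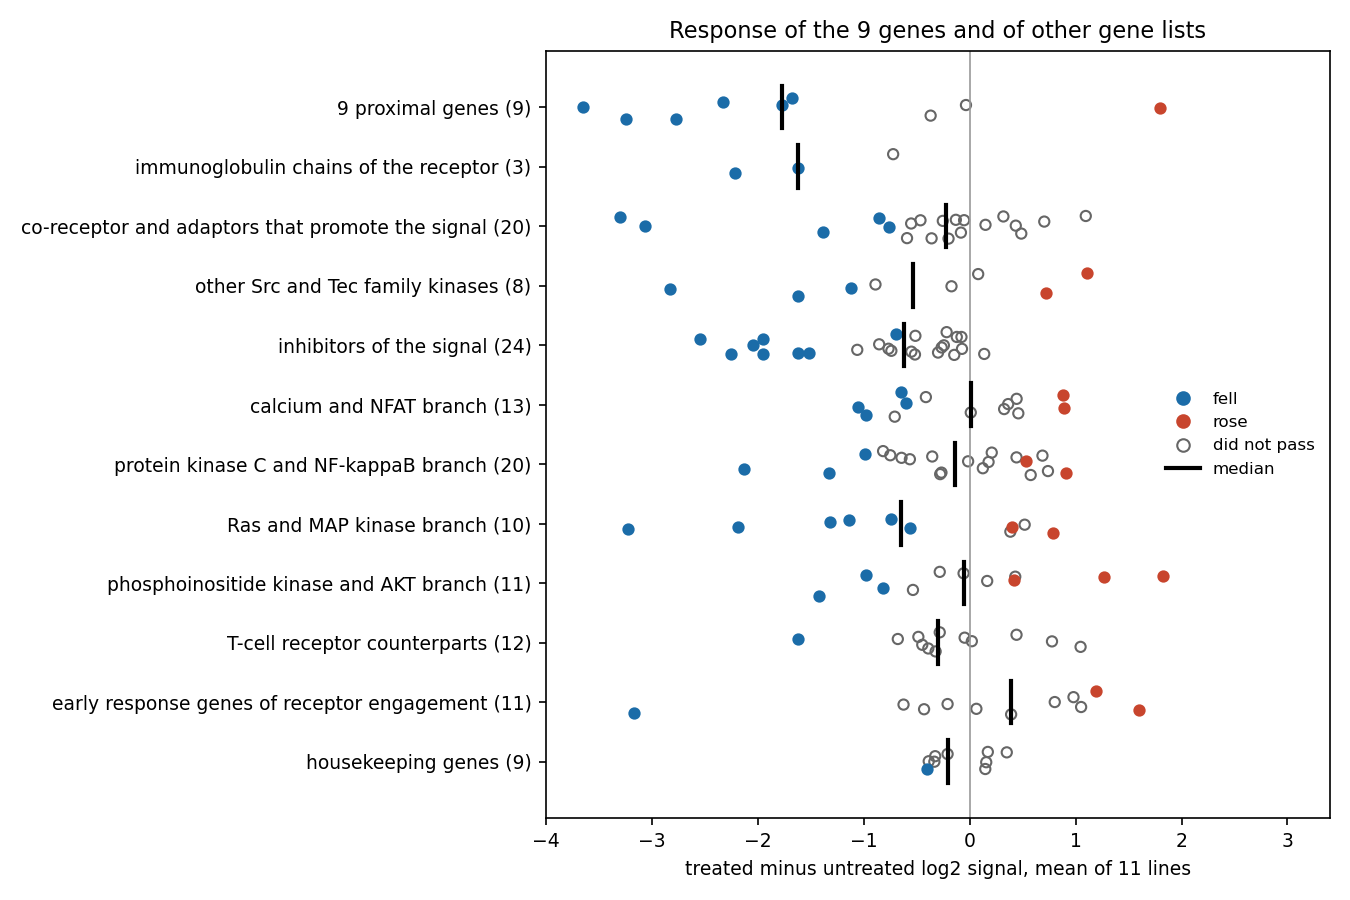
Mean treated minus untreated log2 signal over 11 lines (horizontal axis) of each measured gene of the 9 proximal genes and of other lists (rows, with the number measured). Filled points passed the test, blue lower and red higher, open points did not, and bars are medians. The median of the 9 genes is -1.77 and that of the housekeeping genes -0.21.

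Of 12 counterparts of these genes in the T-cell receptor pathway, 4 lay above the array median in at least 6 untreated cultures, LCK among them, and 1 of 12, LCK, fell. Of 11 early response genes of receptor engagement 2 rose, NR4A1 (1.60) and IER2 (1.19), and 1 fell, MYC (-3.17). Among all genes with a named element 15.1% rose and 15.2% fell. Of the B-cell markers 4 of 9 fell and 0 rose (5 and 0 by limma at an unadjusted p under 0.05), with POU2AF1 (-3.22), the coactivator of octamer factors, and MS4A1 (-2.55) as the largest decreases. The other 5 did not pass, among them CD74 (0.03). Some genes of the lineage outside the receptor pathway thus moved with the 6 genes and others did not, and their part in the result was not tested. Of 7 T-cell and 7 myeloid markers 0 rose and 0 fell by limma, although CD3D (1.05) and CD3E (0.78) had an unadjusted p under 0.05. Their mean levels ran from 8.33 to 10.83 and from 9.31 to 10.27 over untreated arrays, and from 8.73 to 10.09 and from 9.0 to 11.69 over treated arrays. Of 9 housekeeping genes 1 fell, PPIA (-0.41), and 5 after median scaling.

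The genes outside the lists whose log2 signals over the 22 arrays followed the mean of the 9 genes most closely were FCRLA (r = 0.953), SLC43A3 (0.913), NIN (0.906), APBB1IP (0.905) and DEK (0.892). FCRLA is an Fc receptor-like protein of B cells. These coefficients describe 22 arrays of 11 lines in 2 conditions, which share their normalization and the treatment. FCRLA had a log2 fold change of -2.20 and APBB1IP, an adaptor of RAP1, of -2.53, while NIN, a centrosomal protein, was at -0.85, and SLC43A3, a solute carrier, and DEK, a chromatin protein, at -2.45 and -1.42. All 5 passed the limma test (adjusted p from 2.98e-06 to 0.0039). They were picked for following a mean in which 6 of the 9 genes fell, so this is largely given by the choice and is no separate result.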

How the data were processed

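Gene expression of 11 lymphoma lines, untreated and aza/TSA treated, was measured on 22 Applied Biosystems arrays, which give no counts, so that their number limits the precision. The authors deposited raw signals, intensity values on a linear scale, and a log2 table prepared in ABarray and Bioconductor. The deposited log2 table equals the log2 of the quantile normalized intensity values to 5.0e-09 and was used as such. For versions and image settings, the sources used here give none. Elements were named through the platform annotation, and each of the 9 genes has 1 element with its symbol alone. For the other genes the brightest element (mean of all arrays) was taken.

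Differences were tested with limma 3.58.1 in R 4.3.3 on all 32878 elements (two-sided, Benjamini-Hochberg at 0.05), with the cell line as a block for treatment. Lymphoma types, taken from the methods of the study by the labelled cell line, were compared on untreated levels, treated levels and differences. Cultures of a line pair by the line. Their deviations from the group means correlated at 0.361 to 0.585, against at most 0.180 between lines, and 11 of 11 lines matched their own partner best. The scripts were tested on simulated data.

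The 9 genes, the lists and the tests were chosen with earlier results of these data known. Named genes are the 9, in each list the 2 largest decreases and 2 largest increases past the threshold, and the 5 genes most like the mean of the 9. IGKC, CD37, CD74, PAX5, FCER2, CD3D and CD3E were named after their values were seen. A listed gene is not reported here. Alternatives were median scaling, no normalization, quantile normalization of log2 values, detected elements only, a variance trend, values floored at the 25th percentile, no line block, the mean over elements, RPMI lines only, the low-signal arrays (HLY-1, OciLy10 and SUDHL4) as a block or left out, each line left out, and folds of 1.5 and 3 and 5 or 7 lines for the counting rule. Leaving HLY-1, OciLy10 and SUDHL4 out of the ABC comparisons, and the counting rule on quantile normalized log2 values, were added after seeing the data.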

Additional observations from a re-analysis of the deposited data

Results flagged for a closer look

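The treated level of CD79A in Ramos (17.61 log2 units) lay apart from those of the other lines outside the ABC type, with a gap to the next line of 0.562 of the range of the 8 lines. This was also the only line in which CD79A was higher after treatment, while CD79B in Ramos was lower by 2.57 log2 units.

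The untreated level of PLCG2 in K422 (17.28 log2 units) lay apart in the same way, with a gap of 0.552 of the range. K422 was also highest after treatment (16.96). In all, 27 sets of 8 lines were examined by Dixon's criterion, which chance exceeds in about 1 of 20 sets.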

How the results depend on the processing

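The responses of BLNK, SYK, CD79B and BTK kept their direction and their call under all 21 alternatives, with log2 fold changes of -3.88 to -3.48, -3.49 to -2.74, -3.16 to -2.62 and -2.58 to -2.14. CD79A, CD22 and PRKCB did so under 20, and lost the call without the replicate block (cell line), where the count of higher genes was 0, that of lower genes 4, and 2136 and 2059 of all elements were lower and higher. That fit ignores the pairing of cultures by line. The log2 fold change of LYN changed sign with RPMI lines only (0.26), and leaving out single lines gave -0.19 to 0.12. PLCG2 was called with median scaling and without normalization. The count of lower genes in untreated ABC lines (1) was 0 with the floor, with the low-signal arrays as a block and without HLY-1, OciLy10 and SUDHL4 (adjusted p for CD79B 0.0596, 0.205 and 0.119), 2 with RPMI lines only (HLY-1 against 8 lines, CD79B and BTK), and 0 to 1 leaving out single lines. The BTK difference there ran from -2.29 without OciLy10 to 0.045 without HLY-1. In treated ABC lines the count was 2 with RPMI lines only (CD79B and CD22), where the lone HLY-1 is assumed to vary like the other lines. For the fits with RPMI lines only, no share of all elements called is given, so these counts of 2 have no reference. They rest on HLY-1 alone, a low-signal line with the lowest untreated level of 6 of the 9 genes. They are therefore not read as results on these genes. Signals near or below the array median limit PRKCB untreated, BLNK and SYK treated, and in HLY-1 CD22 in both conditions and CD79B and BTK treated.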
